A study of Mus musculus with 56 samples.

Results

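Chrysene is a polycyclic aromatic hydrocarbon, a class of fused-ring combustion products. The comparison described here set the forestomach of 5 mice given 150 mg/kg chrysene per day (D3) against the forestomach of 5 vehicle controls (D0), which is 10 of the 56 arrays of the series. Members were chosen by the tissue and dose in the sample titles. All animals were male MutaTMMouse, a transgenic strain made for scoring mutations, aged about 14 weeks. They were gavaged on each of 28 days, the D0 mice with olive oil alone and the D3 mice with chrysene dissolved in olive oil, and tissue was taken 72 hours after the final dose. Every D0 and D3 mouse was a separate animal, and its RNA came from a random slice of the tissue. On each array the mouse RNA carried Cy5 and a reference RNA pooled from 11 mouse cell lines carried Cy3, so every level below is a log2 ratio of sample over reference, and every difference is D3 minus D0 on that log2 scale. The D1 (17.5 mg/kg, 5 mice) and D2 (50 mg/kg, 4 mice) forestomach arrays entered the same fit, where they add to the probe filter, the spread and the covariate slopes, and they share the D0 mice with the D3 comparison.

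Polycyclic aromatic hydrocarbons bind the aryl hydrocarbon receptor (AhR), a transcription factor that pairs with ARNT at the xenobiotic response element and raises the transcription of Cyp1a1, Cyp1b1 and of its own repressor Ahrr. The CYP1 enzymes oxidise the hydrocarbon, and some of the products bind DNA, which can call on p53 targets and repair genes. The mouse forestomach is the first tissue that a gavaged compound meets. It is lined by a keratinising squamous epithelium over connective tissue and smooth muscle, and it borders the acid-secreting glandular stomach.

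The tissue label was checked first. Squamous genes were present: all 22 keratin and junction genes and all 25 cornified envelope genes on the array passed the filter on dim spots described below, and Krt5, Krt14, Krt4, Krt13, Trp63, Lor and Sprr3 were so on all 10. The glandular stomach genes Tff1 (a mucosal trefoil peptide), Pgc (pepsinogen C) and Atp4b (a subunit of the gastric proton pump) were not absent. Atp4b was at 0.10, 7.08, 6.63, -0.20 and 6.58 in D0 mice 1 to 5, and at 0.09, 0.45, 3.00, 7.28 and 0.91 in D3 mice 16 to 20. It was therefore high in D0 mice 2, 3 and 5 and in D3 mouse 19, intermediate in D3 mouse 18, and near 0 elsewhere. Pgc was at 0.32, 5.14, 5.64, 0.53 and 4.32 in the D0 mice, and at -0.08, 0.47, 0.93, 4.95 and 1.51 in the D3 mice. Tff1 was at 5.31, 6.75, 5.95, 4.19 and 6.54 in the D0 mice, and at 3.81, 5.08, 5.50, 7.05 and 4.73 in the D3 mice. The groups overlapped for all 3 genes, and the differences of -0.51 for Tff1, -1.64 for Pgc and -1.69 for Atp4b gave a two-sided exact permutation p of 0.476, 0.341 and 0.516 (n = 5 and 5; all 0.516 after adjustment over the 3). With array column as a covariate the differences were -1.48, -3.25 and -4.59. The Pgc and Atp4b spots of D0 mice 1 and 4 and D3 mice 16 and 17 were not well above background. The differences of these 2 genes are therefore no exact sizes.

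The arrays also differed in brightness. Between 18.9% and 50.3% of Cy5 spots were well above background in the D0 mice and between 25.7% and 50.8% in the D3 mice (means 33.9% and 38.4%, exact permutation p = 0.579, two-sided). The arrays lay on 3 slides, each with both groups, and the 4 bright arrays (D0 mice 2 and 5, D3 mice 19 and 20) shared a slide. Array columns on the slide largely followed dose, and column and dose cannot be fully told apart.

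**Figure D1:**
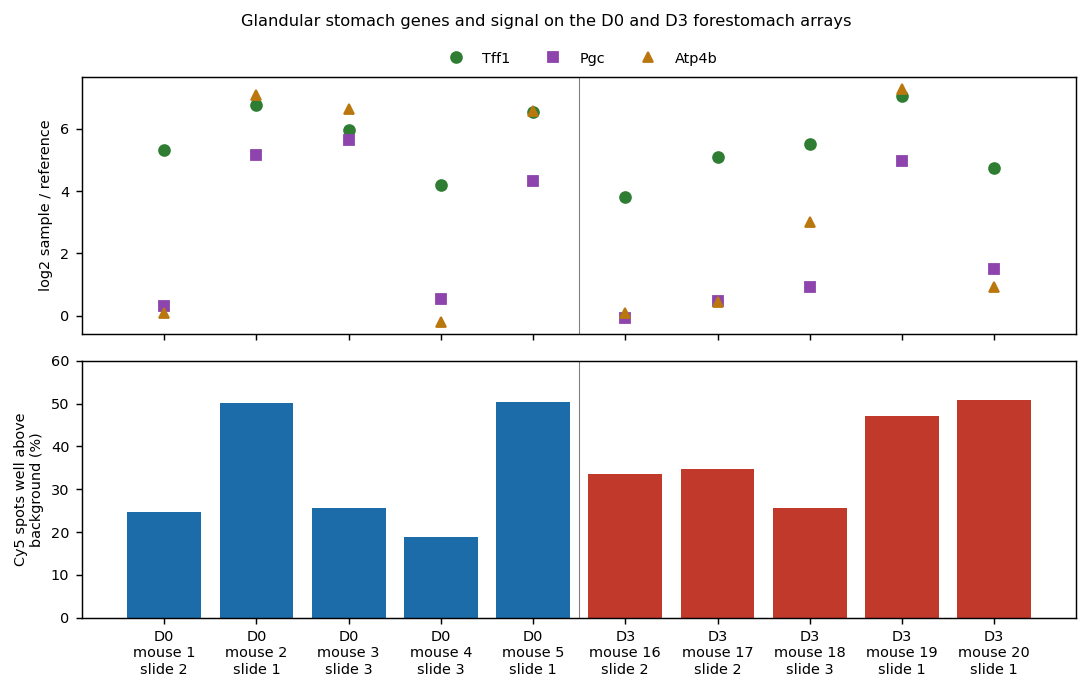
Log2 sample over reference of Tff1, Pgc and Atp4b (upper panel, y axis) and the percentage of Cy5 spots well above background (lower panel, y axis) on each of the 10 arrays, ordered by group and mouse number (x axis, with the slide). Atp4b lies at 6.58 or more in D0 mice 2, 3 and 5 and in D3 mouse 19, and the brightest arrays, at 47.2% or more, are those of slide 1.

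The first question was which genes differed between the high dose and the vehicle. limma was fitted to the 27491 probes whose Cy5 spot stood well above background on 3 or more of the 19 forestomach arrays, with an adjusted p of at most 0.05 and a fold change of at least 1.5 as limits. Only Ltv1 and Trub2 passed both, and both rose. They were 0.00728% of the probes tested, and 0% passed in the direction of lower expression at D3. At an unadjusted p of at most 0.05, with 1 probe for each of 14072 named genes, 1032 genes (7.33%) were higher and 528 (3.75%) lower at D3, a split that was 1242 and 435 with loess on the scanner signals, 1349 and 422 with normexp before it, and 13 and 4 with median centring. In 175 genes (1.24%) every D3 array lay above every D0 array, and in 67 genes (0.476%) every D3 array lay below, and these numbers were 4 and 3 with median centring.

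Ltv1 is a ribosome biogenesis factor of the small ribosomal subunit, on chromosome 10 from 13178597 to 13193137 (GRCm38.p6). Its level was -0.44, 0.04, -0.48, -0.35 and 0.06 in D0 mice 1 to 5, and 0.49, 0.67, 0.57, 0.43 and 0.67 in D3 mice 16 to 20. All D3 mice were above all D0 mice. The rise was 0.80 ± 0.11 (SE), or 1.74-fold, with an adjusted p of 0.0418 by limma. With D1 and D2 set against the same D0 mice, the differences were 0.62 and 0.54, with adjusted p-values of 0.936 and 0.377.

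Trub2 encodes a mitochondrial pseudouridine synthase, on chromosome 2 from 29761223 to 29787671. Its level was -0.44, -0.57, -0.28, -0.21 and -0.52 in the D0 mice and 0.31, 0.26, 0.49, 0.19 and 0.19 in the D3 mice. The rise was 0.69 ± 0.10, or 1.61-fold, with an adjusted p of 0.0418. A further Trub2 probe did not follow: it ranged from -0.44 to -0.01 at D0 and from -0.35 to 0.03 at D3, a difference of 0.01 with an unadjusted p of 0.93, and it was well above background on 8 of 19 arrays against 19 of 19 for the first. The 2 probes of Trub2 therefore disagree, while Ltv1 has 1 probe. The call of each gene also depended on single mice: Ltv1 lost it without any of D0 mice 1, 3 and 4 or D3 mice 16, 17, 18 and 20, where its adjusted p lay between 0.0717 and 0.203. Trub2 kept its call only without D3 mouse 19, and its adjusted p lay between 0.063 and 0.212 without any of the other mice. With D0 and D3 arrays alone in the fit, the adjusted p of both was 0.464.

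The AhR question bears on the promoters of the genes just named and of the classical targets, so 4 upstream stretches are shown. Each holds the 250 bases before a RefSeq transcript start on the gene's own strand (GRCm38.p6 build), with the core of the xenobiotic response element, GCGTG, in capitals on either strand (CACGC where it lies on the opposite strand).
Cyp1a1, chr9:57697363-57697612, plus strand: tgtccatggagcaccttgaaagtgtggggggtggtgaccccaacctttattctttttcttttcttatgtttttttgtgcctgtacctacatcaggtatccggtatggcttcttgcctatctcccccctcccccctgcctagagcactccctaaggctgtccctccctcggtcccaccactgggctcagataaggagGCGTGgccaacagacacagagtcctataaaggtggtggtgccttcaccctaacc
Cyp1b1, chr17:79715062-79715311, minus strand: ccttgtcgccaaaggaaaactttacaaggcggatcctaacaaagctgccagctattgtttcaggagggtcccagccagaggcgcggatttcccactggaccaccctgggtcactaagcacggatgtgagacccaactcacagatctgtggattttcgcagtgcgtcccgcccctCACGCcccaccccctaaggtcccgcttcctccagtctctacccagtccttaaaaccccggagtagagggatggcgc
Ltv1, chr10:13193138-13193387, minus strand: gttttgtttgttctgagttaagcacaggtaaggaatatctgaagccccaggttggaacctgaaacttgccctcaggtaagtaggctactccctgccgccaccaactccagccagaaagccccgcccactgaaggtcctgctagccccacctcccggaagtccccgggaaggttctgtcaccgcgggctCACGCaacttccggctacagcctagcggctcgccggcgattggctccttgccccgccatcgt
Trub2, chr2:29787672-29787921, minus strand: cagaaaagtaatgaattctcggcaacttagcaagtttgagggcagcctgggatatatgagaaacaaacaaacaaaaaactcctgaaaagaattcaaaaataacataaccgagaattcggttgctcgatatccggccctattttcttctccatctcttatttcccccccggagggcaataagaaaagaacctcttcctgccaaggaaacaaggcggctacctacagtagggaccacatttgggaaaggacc
The start used for Cyp1a1 lies inside the whole span of the gene given below, and those of the other 3 lie at its end. The core occurs 1 time upstream of Cyp1a1, Cyp1b1 and Ltv1 and not in the stretch shown for Trub2. It is a short word: 28.2% of 32851 RefSeq promoters of the same length hold it, and so do 9 of the 20 leading genes below that have an entry. A match describes the letters only.

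The classical AhR targets gave little difference between the groups. Cyp1a1, on chromosome 9 from 57687928 to 57703824, was at 0.53, 0.02, 0.01, 0.10 and 0.23 in the D0 mice, not well above background on any of them. In D3 mice 16 to 20 it was at 4.77, 0.42, 0.11, 0.11 and 0.83, and well above background in mice 16 and 20 alone. The groups overlapped and the difference of 1.07 ± 0.76 (adjusted p = 0.74 by limma; exact permutation p = 0.198, two-sided, 0.563 after adjustment over Cyp1a1, Cyp1b1 and Ahrr) was 0.19 without mouse 16. All 5 D0 spots and 3 of the 5 D3 spots were not well above background. The log2 difference is therefore no exact size, and no fold is given for Cyp1a1. At the lower doses Cyp1a1 was well above background only in D1 mouse 8, at 3.58, and in D2 mouse 11, at 0.70. In the lung and liver of mouse 16 Cyp1a1 was at 0.78 and 0.30, inside the range of the other D3 mice in both tissues (0.15 to 0.88 in lung and 0.00 to 0.71 in liver), and the D0 mice were at 1.12 to 2.99 in lung.

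Cyp1b1, the sister oxidase of Cyp1a1, was at -0.22, -2.00, -0.37, -0.43 and -0.37 in the D0 mice and at 0.77, -0.25, -0.52, -1.07 and -0.67 in the D3 mice. Mouse 16 was again the highest of the D3 mice and D0 mouse 2 stood far below the other controls. The difference was 0.33 ± 0.38, with an adjusted p of 0.871 (exact permutation p = 0.532), and it was 0.00 without D0 mouse 2. Ahrr, the repressor induced by AhR, differed by 0.09 ± 0.13 (adjusted p = 0.9 by limma, exact permutation p = 0.563). Its spot was well above background on 2 of the 5 D0 arrays and 4 of the 5 D3 arrays, so this difference is no exact size. A second Ahrr probe was well above background on 0 of the 19 forestomach arrays. Tiparp, an AhR-induced ADP-ribosyltransferase, differed by -0.02 ± 0.18, and Nqo1, a quinone reductase shared by AhR and NRF2, by -0.49 ± 0.44, with adjusted p-values of 0.991 and 0.807. None of the 10 tested AhR targets reached an unadjusted p of 0.05 in either direction, and their median difference was 0.04 against 0.00 over all probes. That median was -0.08 with array column as a covariate and 0.44 with median centring instead of loess, which moved the median of all probes to 0.19.

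**Figure D2:**
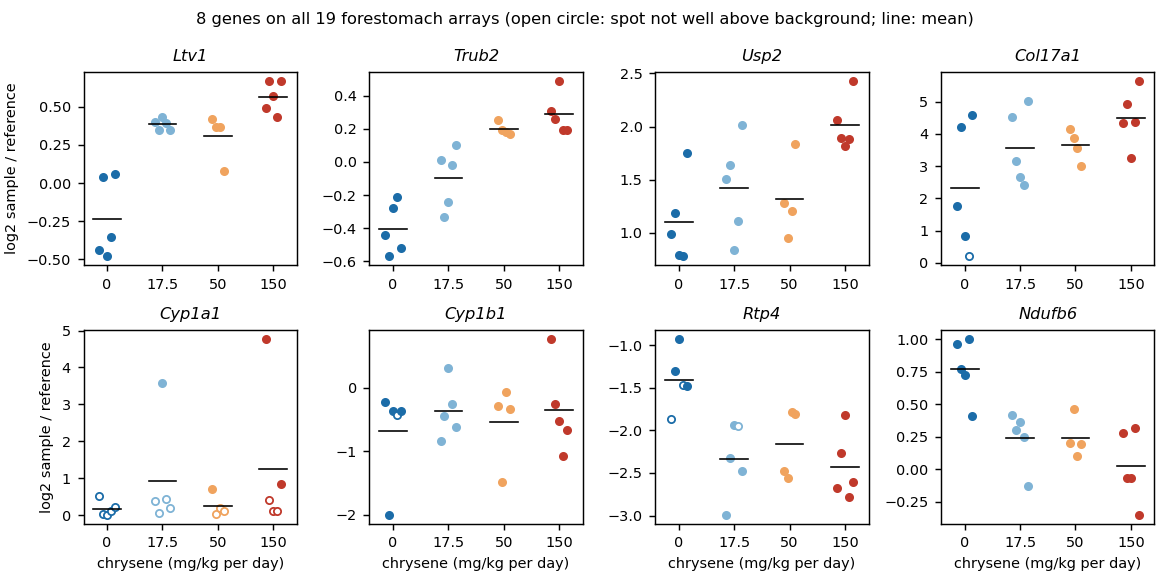
Log2 sample over reference (y axis) of 8 genes on all 19 forestomach arrays by chrysene dose in mg/kg per day (x axis), where points are mice, lines are group means and open circles are spots not well above background. The 5 Ltv1 and 5 Trub2 values at 150 mg/kg lie above all 5 at 0 mg/kg. Cyp1a1 stands at 4.77 in mouse 16 given 150 mg/kg and at 3.58 in mouse 8 given 17.5 mg/kg.

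Beyond the genes that passed both limits, 22 more with a gene symbol were named by a rule on unadjusted p of at most 0.01, fold change of at least 1.5, groups that did not overlap, and a spot well above background on all 5 arrays of the higher group. The rule left 94 genes, 74 higher and 20 lower at D3, and the largest differences were taken to give 12 genes in each direction. The absence of overlap in these genes is part of the rule and no further evidence. Their adjusted p-values lay between 0.0718 and 0.244, so none of the 22 passed the test across all probes. With slide as a block, Rabac1 and Cd47 passed both limits (adjusted p = 0.0438 for each), beside Ltv1 and Trub2 (0.0344 for each).

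Among genes with a symbol, the largest positive difference under this rule was that of Col4a6, a chain of basement membrane collagen IV. It was at 0.96, 1.44, 0.89, 0.12 and 2.03 in the D0 mice and at 2.15, 2.61, 2.18, 2.07 and 3.13 in the D3 mice, a difference of 1.34 ± 0.35 with an adjusted p of 0.176. D0 mouse 5 came close to the lowest D3 mouse. Lama5, a laminin chain of the epithelial basement membrane, was higher by 0.97 ± 0.28 (adjusted p = 0.222). Akap12, a scaffold for protein kinase A, was at 0.12, -0.35, -0.64, -0.55 and 0.52 at D0 and at 0.57, 0.87, 0.99, 0.72 and 1.80 at D3, with a difference of 1.17 ± 0.27 (adjusted p = 0.15). Nexn, an actin-binding protein of muscle, was at 0.90, 0.47, 0.31, 0.76 and 0.93 at D0 and at 1.54, 1.73, 1.44, 1.53 and 2.37 at D3, with a difference of 1.05 ± 0.25 (adjusted p = 0.152). D3 mouse 20 was the highest array for each of Col4a6, Lama5, Akap12 and Nexn.

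Plekhh3, which carries a pleckstrin homology domain, had the smallest p among the 10 further genes that were higher. It was at 0.26, 0.53, 0.57, -0.03 and 0.61 at D0 and at 1.16, 1.57, 1.51, 1.08 and 1.77 at D3, a difference of 1.03 ± 0.19 with an adjusted p of 0.0718. Hnrnph1 and Srsf5, which bind pre-mRNA and steer splicing, were higher by 0.94 ± 0.20 and 0.92 ± 0.24 (adjusted p = 0.134 and 0.18). Srsf5 was at -1.12, -0.95, -1.76, -0.97 and -0.97 at D0 and at -0.67, -0.46, -0.41, -0.16 and 0.51 at D3. Ints6l, a paralogue of an Integrator complex subunit, was higher by 0.95 ± 0.24, Ccdc9b by 1.20 ± 0.26 and the predicted gene Gm5796 by 1.08 ± 0.25. Their adjusted p-values were 0.169, 0.137 and 0.15.

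The sizes of the 12 negative differences depended on the setting run, and their weakest values lay between -0.33 (Bckdhb) and -0.09 (Cd47). The largest negative difference among them was that of Bckdhb, a subunit of the mitochondrial branched-chain ketoacid dehydrogenase. It was at 1.95, 2.31, 2.55, 2.00 and 1.64 in the D0 mice and at 0.98, 0.82, 1.52, 1.38 and 1.12 in the D3 mice, a difference of -0.92 ± 0.19 (adjusted p = 0.134). Ndufb6, a subunit of respiratory complex I, was at 0.96, 0.77, 0.72, 1.00 and 0.41 at D0 and at 0.28, -0.07, -0.07, 0.32 and -0.35 at D3. Its difference was -0.75 ± 0.15 (adjusted p = 0.11), and a second Ndufb6 probe gave -0.73. Atp5j2, a subunit of ATP synthase, had a difference of -0.73 ± 0.19 (adjusted p = 0.183). Alkbh7, a mitochondrial member of the AlkB family, had a difference of -0.78 ± 0.18 (adjusted p = 0.152), and its second probe gave -0.25.

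Rabac1, a Rab acceptor of the Golgi, was at 0.76, 0.67, 0.74, 0.93 and 0.41 at D0 and at 0.23, -0.26, -0.21, -0.26 and -0.12 at D3, with a difference of -0.82 ± 0.14 (adjusted p = 0.0718); a second probe gave -0.42. Cd47, the "don't eat me" ligand of SIRP-alpha, was at -0.34, -0.18, -0.24, -0.08 and -0.42 at D0 and at -0.82, -1.01, -1.15, -0.63 and -1.05 at D3, with a difference of -0.68 ± 0.11 (adjusted p = 0.0718); its second probe gave -0.64. Tusc3, a subunit of the oligosaccharyltransferase, and Rtn3, a reticulon of the endoplasmic reticulum, had differences of -0.82 ± 0.16 and -0.79 ± 0.18. Mpdu1, which takes part in dolichol-linked sugar use, had -0.69 ± 0.21, but its second probe gave 0.19 with an unadjusted p of 0.151. The other 3 genes were Gch1, the first enzyme of tetrahydrobiopterin synthesis (-0.75 ± 0.17), Dram2, a lysosomal membrane protein (-0.72 ± 0.20), and the predicted gene Gm13315 (-0.75 ± 0.22).

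Several genes rested on 1 probe out of several. Of the 24 leading genes, 11 had a further tested probe, and in 6 of these (Trub2, Col4a6, Akap12, Gm5796, Alkbh7 and Mpdu1) at least 1 further probe had an unadjusted p above 0.05. The second probes of Col4a6 and Akap12 gave differences of 0.19 and 0.08, and were well above background on 9 and 4 of 19 arrays. Within the 3 slides the difference was 0.50 to 1.02 for Ltv1 and 0.72 to 0.74 for Trub2, and its sign there is fixed by groups that do not overlap.

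**Figure D3:**
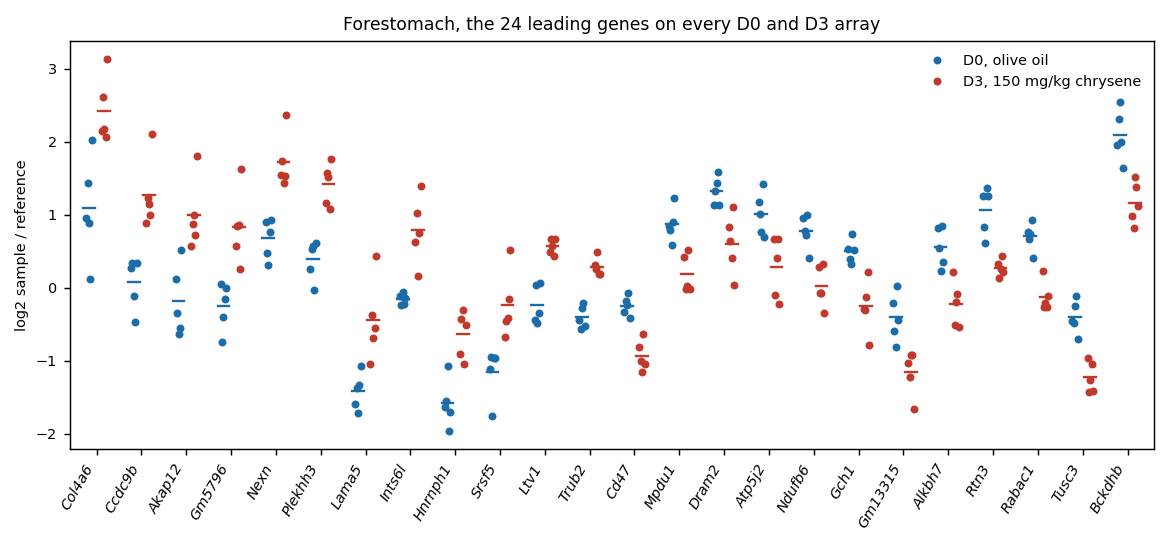
Log2 sample over reference (y axis) of the 24 leading genes (x axis, ordered by difference) on each of the 5 D0 and 5 D3 arrays, with group means as lines. The rule chose genes whose groups do not overlap, and Col4a6 at 1.34 and Bckdhb at -0.92 have the largest differences.

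Each change was then set against the glandular signal. The mean of Tff1, Pgc and Atp4b on each array ranged from 1.51 to 6.32 in the D0 mice and from 1.28 to 6.43 in the D3 mice, and it was added to the fit as a covariate. All 24 leading genes kept their direction, and their differences moved by at most 0.13. The naming rule asked for groups that do not overlap, and both groups held arrays of high and low glandular signal. Genes that track this signal were thus disfavoured by the rule, so the small shift is no independent check. Ltv1 was at 0.82 ± 0.12 (adjusted p = 0.0161) and Trub2 at 0.68 ± 0.11 (adjusted p = 0.0233) with the covariate. Of the other leading genes, Ccdc9b, Plekhh3 and Hnrnph1 passed both limits upwards and Rabac1, Tusc3, Rtn3, Alkbh7, Ndufb6, Gm13315 and Cd47 downwards.

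Over all probes, 64 (0.233%) passed both limits upwards and 80 (0.291%) downwards with the covariate, together 137 gene or transcript names against 2 without it. At an unadjusted p of at most 0.05, with 1 probe per gene, 1333 of 14072 genes (9.47%) were higher and 960 (6.82%) lower with the covariate. All 144 probes had the same direction without the covariate, and 137 of them had an unadjusted p of at most 0.05 there. The number of names past both limits with the covariate (137) hung on single mice. That number was 0 without D0 mouse 1 or D3 mouse 17, 1 without D0 mouse 4 and 9 without D3 mouse 20. It was 21 without D3 mouse 18, 52 without D0 mouse 2, 303 without D0 mouse 3 and 577 without D3 mouse 19. The glandular stomach list itself had a median of -1.28, with 23 of 23 tested members negative and none at an unadjusted p of 0.05, and a median of 0.03 with the covariate, which is made of 3 glandular genes and so removes their difference by construction. In whole tissue, fewer cells of a type and less RNA per cell cannot be told apart.

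**Figure D4:**
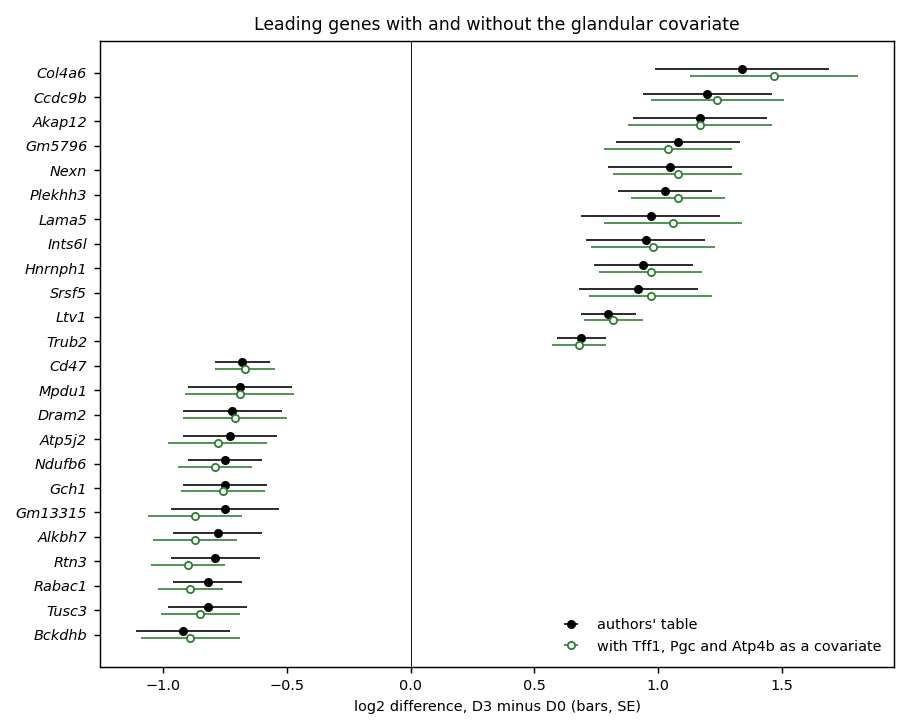
Difference D3 minus D0 on the log2 scale (x axis, bars are SE) of the 24 leading genes (y axis), without (filled) and with (open) the mean of Tff1, Pgc and Atp4b as a covariate. The 2 estimates of a gene lie within 0.13 of each other for all 24.

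The gene lists were described by the number of tested members at an unadjusted p of at most 0.05, against 7.33% higher and 3.75% lower over all genes, and by their median difference, against 0.00 over all probes. RNA processing and nucleolar genes were higher most often in the fit without the covariate. This list, like the others, was drawn up with earlier results of these data known, and it holds the leading genes Trub2 and Srsf5. Its share is therefore a description and no independent test. Of 37 tested members, 17 were higher at that limit and none lower, in 7 every D3 array lay above every D0 array (1.24% over all genes), and the median was 0.28. With the glandular covariate 15 were higher and 2 lower, against 9.47% and 6.82% over all genes in that fit. Trub2 alone passed both limits, joined by Ddx5 and Rbm25 with the covariate (adjusted p = 0.0458 and 0.0338). Rbm25, a splicing regulator, had a difference of 0.76 ± 0.14, Ncl (nucleolin) 0.78 ± 0.21, Npm1 (nucleophosmin) 0.65 ± 0.16, the splicing kinase Clk4 0.75 ± 0.19 and the nucleolar protein Nop56 0.54 ± 0.16. The Rbm25 spot was well above background on 2 D0 arrays and 5 D3 arrays, so its difference is no exact size. The mean over the list was -0.88, -1.10, -0.83, -0.58 and -1.06 in the D0 mice and -0.65, -0.52, -0.48, -0.77 and -0.46 in the D3 mice, so that D0 mouse 4 lay inside the D3 range. Of the 5 members with negative differences, the splicing factors Srsf2 and Srsf3 and the RNA-binding Hnrnpk had values of -0.20, -0.30 and -0.19.

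Oxidative phosphorylation genes had mostly negative differences. Of 32 tested, 31 had a negative difference, and the median was -0.25, but 0.23 with median centring. At the same p limit 5 were lower and none higher, against 3.75% and 7.33% over all genes. The 5 were Ndufb5 (-0.54 ± 0.16), Ndufb8 (-0.70 ± 0.30) and Ndufs3 (-0.30 ± 0.12) of complex I, Cox6b1 of complex IV (-0.62 ± 0.20) and Atp5d of ATP synthase (-0.36 ± 0.15). The list mean was 0.26, 0.90, 0.86, 0.16 and 0.42 in the D0 mice and 0.19, 0.00, 0.13, 0.77 and 0.07 in the D3 mice, and its 3 highest arrays, D0 mice 2 and 3 and D3 mouse 19, were among the 4 with high Atp4b. With the glandular covariate 3 were lower and none higher, against 6.82% and 9.47% over all genes in that fit, and the list median was -0.14.

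Connective tissue and smooth muscle genes were mostly positive. All 13 smooth muscle genes had a positive difference (median 0.68) and 4 were higher at that limit: the actin-binding Tagln (0.89 ± 0.29) and Synpo2 (1.37 ± 0.61), the myosin kinase Mylk (1.06 ± 0.39) and the myosin light chain Myl9 (0.79 ± 0.32). With the glandular covariate, where 9.47% of all genes were higher, 9 of the 13 were higher at that limit and the median was 0.79. Their mean was between 3.06 and 4.44 in the D0 mice and between 3.81 and 5.10 in the D3 mice. Of 36 extracellular matrix genes, 7 were higher at that limit and none lower (median 0.26). With the glandular covariate 5 were higher and 1 lower (median 0.23), against 9.47% and 6.82% over all genes in that fit. The 7 genes without it included the collagen gene Col1a1 (0.64 ± 0.23), the collagen-binding Sparc (0.72 ± 0.20), Postn (1.08 ± 0.50), the microfibril gene Mfap4 (1.09 ± 0.40) and the laminin chain Lamb1. Lamb1 was at -1.27, -1.26, -1.14, -1.29 and -1.36 at D0 and at -0.72, -0.48, -0.56, -0.99 and -0.74 at D3, a difference of 0.57 ± 0.13 (adjusted p = 0.152). Timp1, a metalloproteinase inhibitor, had the lowest moderated t of the list, with a difference of -0.45 ± 0.40. The share of muscle or connective tissue in each slice was not measured, and its part in these differences was not tested.

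Squamous genes had wide ranges among the controls. Col17a1, the hemidesmosomal collagen of basal keratinocytes, was at 1.76, 4.21, 0.84, 0.20 and 4.60 in the D0 mice and at 4.34, 4.94, 3.25, 4.36 and 5.65 in the D3 mice, a difference of 2.19 ± 0.75 (adjusted p = 0.32). The 2 D0 values inside the D3 range came from the bright arrays of mice 2 and 5. Trp63, the basal layer transcription factor, differed by 1.09 ± 0.46, and these 2 were the only ones of 22 keratin and junction genes at an unadjusted p of 0.05 (median 0.33). The keratins Krt5 and Krt14 of the basal layer differed by 0.27 ± 0.38 and 0.22 ± 0.32, and Krt4 and Krt13 of the layers above by 0.66 ± 0.62 and 0.15 ± 0.39. Dsc2, a desmosomal cadherin, differed by -0.58 ± 0.97. Of 25 cornified envelope genes, Casp14, the protease of terminal keratinocyte differentiation, was the only one at that limit, with 3.20, 4.24, 2.19, 2.53 and 4.33 at D0 and 4.10, 3.74, 4.11, 4.11 and 4.30 at D3 (difference 0.78 ± 0.36, adjusted p = 0.527). With array column as a covariate the medians of the 2 squamous lists turned negative, to -0.09 and -0.08. With the glandular covariate 5 of the 22 keratin and junction genes were higher (median 0.54) and 1 of the 25 cornified envelope genes (median 0.32). Over all genes 9.47% were higher in that fit.

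**Figure D5:**
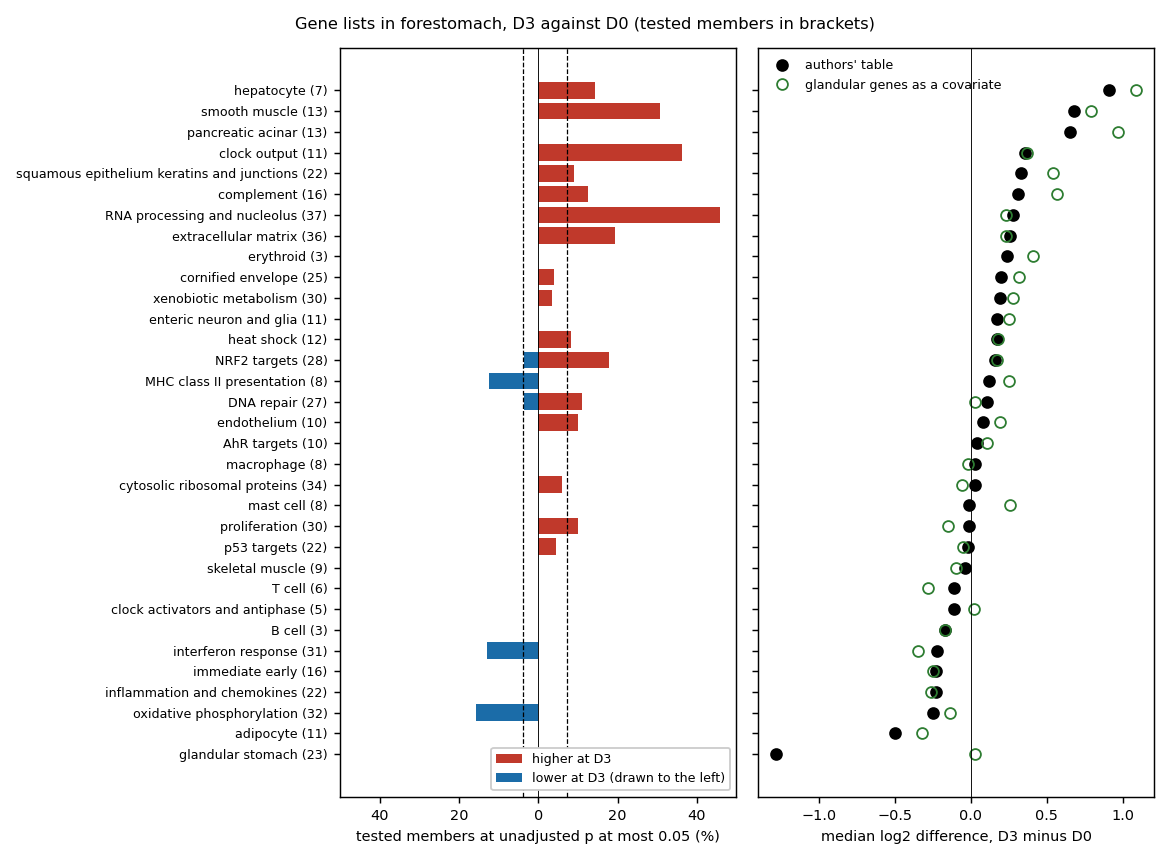
Left, percentage of tested members at an unadjusted p of at most 0.05 (x axis), higher at D3 to the right and lower to the left, for 33 gene lists (y axis, tested members in brackets), with dashed lines at 7.33% and 3.75% for all genes. Right, median log2 difference of each list without (filled) and with (open) the glandular covariate. RNA processing and nucleolus extends farthest right, with 17 of 37 members, and the glandular stomach median moves from -1.28 to 0.03, by construction of the covariate. The lists were drawn up with earlier results of these data known.

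Interferon response genes were mostly negative, with 26 of 31 below 0 and a median of -0.22 that was 0.04 with median centring and 0.01 with array column as a covariate. With the glandular covariate 4 were lower and none higher at the p limit, against 6.82% and 9.47% over all genes in that fit. The median there was -0.35. Without the covariate, all 4 that reached the p limit were lower, against 3.75% over all genes. Rtp4, an interferon-induced chaperone, was at -1.87, -1.31, -0.93, -1.47 and -1.48 in the D0 mice and at -2.68, -2.27, -1.82, -2.78 and -2.61 in the D3 mice. D3 mouse 18 overlapped D0 mouse 1, the spots of D0 mice 1 and 4 were not well above background, and the difference was -1.02 ± 0.24 (adjusted p = 0.152, and 0.0438 with slide as a block). Oas1a (-1.18 ± 0.43), the oligoadenylate synthetase-like Oasl1 (-1.63 ± 0.74) and the ubiquitin-like Isg15 (-0.64 ± 0.30) were the others, while Gbp2, a guanylate-binding protein, had the highest moderated t at 0.45 ± 0.32. In D0 mice 1 and 4 only 9 and 8 of the 31 genes were well above background, against 16 to 31 in the D3 mice. Differences of list members dim in these mice are therefore no exact sizes.

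Complement genes were positive in 14 of 16 tested (median 0.31), and 2 were higher at the p limit. With the glandular covariate 3 were higher, against 9.47% over all genes in that fit, and the median was 0.57. C3, the central complement protein, was at -1.22, -1.05, -0.90, -1.21 and -0.19 at D0 and at -0.40, 0.43, 0.26, -1.23 and 1.08 at D3. D3 mouse 19 was the lowest of all 10, and the difference was 0.94 ± 0.38 (adjusted p = 0.416); a second probe gave 0.92. C1s1, a protease of the classical pathway, differed by 0.59 ± 0.25. Cfi, a complement inhibitor, was at 0.21, 6.13, 4.45, 0.17 and 5.20 at D0 and at -0.04, 0.36, 0.21, 6.38 and 0.86 at D3, high on the same 4 arrays as Atp4b, and its difference went from -1.68 ± 1.45 to -0.22 ± 0.44 with the glandular covariate. The Cfi spots of D0 mice 1 and 4 and D3 mice 16, 17 and 18 were not well above background.

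Of 28 NRF2 targets, which answer oxidative and electrophilic stress, 5 were higher and 1 lower at the same limit, against 7.33% and 3.75% over all genes. The median was 0.16, but -0.11 with array column as a covariate and 0.68 with median centring (0.19 over all probes). With the glandular covariate 7 were higher and 1 lower, against 9.47% and 6.82% over all genes in that fit. The 5 higher without it included Osgin1, an oxidative stress response gene, at 0.61, 0.24, 0.17, 0.87 and 0.46 at D0 and at 0.96, 1.01, 0.94, 0.73 and 1.24 at D3 (0.51 ± 0.16, adjusted p = 0.263), the thioredoxin reductase Txnrd1 (0.45 ± 0.16) and the glutathione transferase Gstm1 (0.60 ± 0.19), whose D3 arrays all lay above D0. The transferase Gsta4 was the one that was lower (-0.54 ± 0.19). Of 22 p53 targets, 1 was higher and 2 lower with the glandular covariate, against 9.47% and 6.82% over all genes. Without it only Aen, a p53-induced nuclease, reached that limit. It was at -0.98, -1.09, -0.93, -1.31 and -0.86 at D0 and at -0.58, -0.60, -0.16, -0.64 and -0.14 at D3, a difference of 0.61 ± 0.13 (adjusted p = 0.137); a second probe gave 0.30. Cdkn1a, the cell cycle inhibitor, Ccng1 and Mdm2, which are standard p53 reporters, differed by -0.33 ± 0.20, -0.12 ± 0.26 and 0.07 ± 0.18, with adjusted p-values of 0.684, 0.937 and 0.955, and the pro-apoptotic Pmaip1 by -0.66 ± 0.39.

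Repair and proliferation genes had shares near those of all genes (7.33% higher and 3.75% lower). Of 27 DNA repair genes, 3 were higher (Ercc2, Ercc5 and Lig3, with 0.39, 0.32 and 0.33) and Ercc1, a subunit of an excision repair nuclease, was lower (-0.43 ± 0.19). With the glandular covariate Ercc1 passed both limits, at -0.60 (adjusted p = 0.0282). Of 30 proliferation genes, 3 were higher and none lower: the replication helicase subunits Mcm4 and Mcm6 and the ribonucleotide reductase subunit Rrm2, with 0.34, 0.53 and 0.40. In the xenobiotic metabolism list, Cyp2s1, an epithelial cytochrome P450, was the only one of 30 at that limit (0.63 ± 0.25).

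Clock output genes were higher in 4 of 11 tested and lower in none at that limit (median 0.36). With the glandular covariate 3 were higher and none lower, against 9.47% and 6.82% over all genes in that fit. Usp2, a deubiquitinase with a daily rhythm, was at 0.99, 1.19, 0.79, 0.78 and 1.75 at D0 and at 2.06, 1.89, 1.82, 1.88 and 2.43 at D3, a difference of 0.92 ± 0.23 (adjusted p = 0.163). The proline and acidic amino acid-rich bZIP factors Dbp and Tef differed by 0.86 ± 0.39 and 0.66 ± 0.23, and the repressor Nr1d1 by 0.47 ± 0.20. Per1, Per2 and Per3 differed by 0.26 ± 0.36, -0.02 ± 0.19 and 0.05 ± 0.13, and the repressor Bhlhe40 by -0.44 ± 0.32. The hour at which each mouse was killed is not given in the sources used here, and its part was not tested. None of 5 clock activators and antiphase genes reached that limit.

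Markers of other tissues were uneven among the mice. The mean over 14 pancreatic acinar genes was 5.16 in D3 mouse 19 and between 0.04 and 2.24 in the other 9 mice, and the list's median of 0.65 was -0.11 without that mouse. The hepatocyte list (7 genes) had means of 2.97 and 2.25 in D0 mice 2 and 3 and of 3.43 and 3.25 in D3 mice 19 and 20, against 0.01 to 1.57 in the rest, and a median difference of 0.91 that was 0.44 or more under every setting tried. Of its 7 genes, 1 was higher at an unadjusted p of 0.05 by limma. The difference of the list within slides 1, 2 and 3 was 1.5, 0.69 and 0. Immune lists were thin: 3 of 8 B cell genes and 6 of 10 T cell genes on the array were tested, with medians of -0.17 and -0.11. The adipocyte list had means of 3.61 and 3.53 in D0 mice 2 and 5 and of 0.61, 0.69 and 0.63 in D0 mice 1, 3 and 4. Its difference was -2.88, 0.53 and 1.62 within slides 1, 2 and 3, and its median ranged from -2.18 to 0.14 over the settings run. No member of the glandular, pancreatic, adipocyte (median -0.50), skeletal muscle, B cell, T cell, macrophage, mast cell, erythroid or enteric lists reached an unadjusted p of 0.05 without the glandular covariate. With it, 5 of 13 pancreatic acinar genes were higher, against 9.47% of all genes. In that fit 1 of 23 glandular, 1 of 9 skeletal muscle, 1 of 8 mast cell and 1 of 11 enteric genes was higher. There 1 of 6 T cell genes was lower, against 6.82% of all genes.

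The remaining lists had at most 2 members at that limit. Heat shock genes had 1 of 12 higher, Hspb1 (0.45 ± 0.19). Cytosolic ribosomal proteins had 2 of 34 higher, Rpl5 and Rpl35 (0.51 and 0.49), and a median of 0.03 that was -0.21 after loess on the scanner signals. Neither the immediate early genes (16 tested, median -0.23) nor the inflammation and chemokine genes (22 tested, median -0.23) had a member at that limit, and both medians were positive with median centring, at 0.18 and 0.17. The MHC class II list had 1 of 8 lower, the protease Ctss (-0.49 ± 0.17), and the endothelium list 1 of 10 higher, Vwf (0.96 ± 0.38).

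Finally, the D3 effect in forestomach was compared with that in the lung and liver of the same mice. The difference of the effects passed both limits for 20 of 32606 probes (0.0613%) against lung and for none of 29637 (0%) against liver, where 2130 gene or transcript names had an unadjusted p of at most 0.05. Ndufb6 and Aen were the leading and list genes among the 20. Ndufb6 differed by -0.75 in forestomach and 0.21 in lung, an effect lower by 0.96 (difference -0.96, adjusted p = 0.0358), and Aen by 0.61 and -0.19 (difference 0.80, adjusted p = 0.0195). The only one of the 19 names past both limits with mouse number as a replicate block was Ssb, an RNA-binding chaperone of polymerase III transcripts, named after its values were seen, with 0.49 in forestomach and -0.46 in lung (adjusted p = 0.0161). For Ltv1 the effects were 0.21 in lung and 0.15 in liver, and for Trub2 0.07 and 0.22. Their differences from forestomach had adjusted p-values of 0.0946 and 0.0658 against lung and 0.207 and 0.294 against liver.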

How the data were processed

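The authors deposited scanner files with the median intensity of each spot and its background in both channels (Feature Extraction 10.7.3.1 per the file headers) and a table of log2 ratios (Cy5 over Cy3), 1 for every probe on every array. Per the study's methods the log2 ratios come from LOWESS on median signals without background subtraction. The deposited spot flags are other values of 0 or 1. The table correlated with loess ratios computed here from the intensity values at 0.977 to 0.998 on the 19 forestomach arrays. Dyes were not swapped, so a probe's dye bias stays in its level. The number of arrays limits the precision.

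Of 55681 probes, 26413 (20018 genes) were named by accession through RefSeq (GRCm38.p6). Probes with a non-uniform spot were dropped and 27491 were tested. limma 3.58.1 (lmFit, eBayes, Benjamini-Hochberg) in R 4.3.3 was fitted to 4 group means over the 19 arrays; the methods name MAANOVA, which was not run. Exact permutation tests were two-sided over 252 splits, with a smallest possible p of 0.00794. In lists, the probe of highest mean Cy5 signal stood for its gene. The script was tested on simulated data.

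Named were genes past both limits, then the 12 largest per direction by the rule given, AhR and p53 reporters, the glandular genes, and the members of 8 lists with the highest and lowest moderated t. Members, lists and tests were chosen with earlier results of these data known. Brightness, and the glandular covariate with slide or without single mice, were alternatives added after seeing the data.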

Additional observations from a re-analysis of the deposited data

Results flagged for a closer look

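In 8 of 102 groups of 5 values, over the named genes at D0 and D3, 1 mouse stood far from the others; chance gives about 1 in 20, or 5.1. Cyp1a1 was at 4.77 in D3 mouse 16 against 0.11 to 0.83 in the other 4, and Cyp1b1 at -2.00 in D0 mouse 2 against -0.43 to -0.22. D3 mouse 20 was at 2.10 for Ccdc9b (others 0.88 to 1.23) and at -1.23 for Ccng1 (others -0.43 to -0.17). D3 mouse 16 was at 0.23 for Rabac1 (others -0.26 to -0.12), and D0 mouse 3 at -1.76 for Srsf5 (others -1.12 to -0.95). D3 mouse 19, with high glandular genes, was at 6.38 for Cfi (others -0.04 to 0.86) and at 4.51 for Dsc2 (others 0.56 to 1.42).

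The D3 effect differed between forestomach and lung by the test of the difference for Ndufb6 (-0.96, adjusted p = 0.0358 by limma) and for Aen (0.80, adjusted p = 0.0195). With the mouse number as a replicate block the adjusted p-values were 0.0936 and 0.0848.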

How the results depend on the processing

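The count of genes past both limits (2) was 0 with loess on the scanner signals, with median centring and with D0 and D3 arrays alone, 1 with normexp and with array column as a covariate, 13 with slide as a block, 19 with array brightness as a covariate, 131 with array weights, 137 with the glandular covariate and 310 with that covariate and slide together; the cause was not tested. The 1 past them with array column was neither Ltv1 nor Trub2. Leaving out single mice gave 0 to 6, the 6 without D3 mouse 19, and with the glandular covariate 0 to 577. Both genes stayed past the limits with the stricter or no filter on dim probes, slide, the glandular covariate, array weights, brightness, and eBayes with trend and robust. The 24 leading genes kept their direction in every setting run, which their absence of overlap fixes within slides and without single mice. Their sizes varied over the settings: Ltv1 ranged from 0.6 to 1.34, Trub2 from 0.64 to 1.3 and Col4a6 from 1.09 to 1.57. Among the negative differences, Bckdhb ranged from -1.12 to -0.33 and Cd47 from -0.77 to -0.09.

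The 1560 genes at unadjusted p of at most 0.05 became 17 with median centring, 2383 with slide, 2408 with brightness and 2932 with the glandular covariate and slide, and 1034 to 2150 without single mice, the lowest without D3 mouse 20. Their split of 1032 higher and 528 lower was 1242 and 435 with loess and 1349 and 422 with normexp. The 242 genes without overlap became 7 with median centring. For forestomach against lung, 19 became 1 with mouse number as a replicate block and 0 with D0 and D3 arrays alone or median centring; against liver the count was 0 under all 4 fits.

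With array column as a covariate the median of glandular stomach genes went from -1.28 to -3.77, Tff1 to -1.48, Pgc to -3.25 and Atp4b to -4.59. Median centring, which moved the median of all probes to 0.19, gave list medians of 0.79 for RNA processing and nucleolus, 1.08 for smooth muscle, 0.57 for extracellular matrix, 0.52 for clock output, 0.58 for complement, 0.64 for keratins and junctions and 0.56 for cornified envelope. Without single mice the glandular stomach median lay between -2.33 (without D3 mouse 19) and -0.51 (without D0 mouse 2). Directions that reversed were those of uncalled genes. The glandular covariate holds Tff1 and Atp4b themselves. Tff1 reached 0.21 with median centring, 0.21 with the glandular covariate and 0.17 with slide added; Atp4b 0.17 and 0.24 with these 2 covariate fits; Dsc2 0.29 and 0.01. Median centring gave 0.37 for Tiparp, 0.07 for Nqo1, 0.32 for Cdkn1a, 0.40 for Ccng1, 0.17 for Gsta4, 0.17 for Timp1 and 0.05 for Bhlhe40. Tiparp was at 0.02 with loess, 0.01 with normexp, 0.03 with array weights, 0.05 with brightness and 0.01 with the glandular covariate and slide; Ccng1 was at 0.04 with array weights and Timp1 at 0.30 with array column. Without single mice Tiparp ranged from -0.16 to 0.08, Ccng1 from -0.34 to 0.06, Mdm2 from -0.06 to 0.17, Cyp1b1 from 0.00 to 0.51, Ahrr from 0.00 to 0.15, Dsc2 from -1.30 to 0.05 and Csta1 from -0.22 to 0.05.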
